A study of Mus musculus with 6 samples.

Results

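The OAS and IFIT families are interferon-induced antiviral genes, and 9 of them were followed here in mouse kidney: Oas1a, Oas1g, Oas2, Oas3, Oasl1, Oasl2, Ifit1, Ifit2 and Ifit3. They were taken as every non-control probe of the array whose gene name was one of the 9, which gave 11 probes among 56605 on the array. Of the 11, 10 gave signals well above background on 3 or more of the 6 arrays, and they were tested in 1 fit with all 39924 probes that met this rule. The samples were whole kidneys of 3 MRL/MpJ mice (MRL, the control strain) and 3 MRL/MpJ-Fas lpr/lpr mice (LPR), all female and 6 months old, kept free of specific pathogens, with no drug named in the labels. LPR mice are homozygous for the lpr mutation of Fas, the gene of a death receptor of lymphocytes, on the MRL background that both groups share, and they develop an autoimmune disease with nephritis like that of human lupus. Each kidney was labelled with Cy3 and read on 1 single-colour array of 1 slide. Nothing in the labels says whether the mice of a group were littermates, so the p-values measure the spread between these 3 mice of each strain.

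Both families belong to the first line of defence against viruses. Interferons bind their receptors on the cell surface, kinases at the receptors pass the signal on, and a protein complex that contains Stat2 and Irf9 binds a short DNA word, the interferon-stimulated response element (ISRE), in front of the genes it induces. OAS enzymes are switched on by double-stranded RNA and make short chains of adenylate, called 2-5A, which lead to the cutting of RNA in the cell. IFIT proteins hold foreign RNA by its 5′ end and keep it from being translated. Interferon-stimulated genes are raised in the blood and kidney of many patients with lupus.

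To show what lies in front of these genes, the 200 bases before the transcription start are printed for the members whose promoter window held an ISRE core, and for Ifit2 and Ifit3b, a pair that did not pass the test below. The sequences are from RefSeq (mouse assembly GRCm38.p6), written 5′ to 3′ on the strand of the gene. Capitals mark the ISRE core, searched as GAAANNGAAA on both strands, so that it reads as TTTC, any 2 bases, TTTC where the word lies on the other strand.

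Oas1a, chr5:120907526-120907725, minus strand: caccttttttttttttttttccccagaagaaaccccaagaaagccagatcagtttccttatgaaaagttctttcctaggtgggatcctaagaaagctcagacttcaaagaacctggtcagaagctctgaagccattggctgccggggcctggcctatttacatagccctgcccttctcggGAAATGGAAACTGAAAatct

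Oas1g, chr5:120887614-120887813, minus strand: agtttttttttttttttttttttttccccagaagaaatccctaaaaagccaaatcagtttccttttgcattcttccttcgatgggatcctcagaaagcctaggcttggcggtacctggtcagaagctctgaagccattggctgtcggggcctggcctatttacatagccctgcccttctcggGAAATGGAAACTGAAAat

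Oas3, chr5:120777660-120777859, minus strand: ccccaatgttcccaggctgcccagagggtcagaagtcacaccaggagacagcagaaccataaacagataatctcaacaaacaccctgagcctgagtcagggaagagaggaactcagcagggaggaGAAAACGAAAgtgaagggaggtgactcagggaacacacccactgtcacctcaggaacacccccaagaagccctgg

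Ifit1, chr19:34640689-34640888, plus strand: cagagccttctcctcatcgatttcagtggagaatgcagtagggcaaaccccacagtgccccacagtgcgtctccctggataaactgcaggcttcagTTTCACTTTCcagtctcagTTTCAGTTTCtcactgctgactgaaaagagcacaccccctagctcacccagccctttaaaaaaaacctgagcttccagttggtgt

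Ifit3, chr19:34583329-34583528, plus strand: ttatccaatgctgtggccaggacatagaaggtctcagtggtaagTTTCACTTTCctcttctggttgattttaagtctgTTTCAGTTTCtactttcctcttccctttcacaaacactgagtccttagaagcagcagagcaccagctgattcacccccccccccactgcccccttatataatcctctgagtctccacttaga

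Ifit3b, chr19:34607757-34607956, plus strand: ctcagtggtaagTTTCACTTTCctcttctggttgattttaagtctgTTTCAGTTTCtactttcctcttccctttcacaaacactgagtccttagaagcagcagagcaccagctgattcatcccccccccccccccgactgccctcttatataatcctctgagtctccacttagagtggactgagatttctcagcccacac

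Ifit2, chr19:34550494-34550693, plus strand: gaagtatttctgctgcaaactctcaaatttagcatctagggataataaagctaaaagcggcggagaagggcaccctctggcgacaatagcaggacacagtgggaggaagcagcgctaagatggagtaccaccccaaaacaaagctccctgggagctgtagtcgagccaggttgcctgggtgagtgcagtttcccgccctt

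Ifit2, chr19:34550888-34551087, plus strand: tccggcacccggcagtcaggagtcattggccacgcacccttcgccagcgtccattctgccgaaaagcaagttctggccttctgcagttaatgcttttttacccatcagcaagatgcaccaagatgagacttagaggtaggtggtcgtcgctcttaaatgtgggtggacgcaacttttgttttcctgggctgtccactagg

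A window of 250 bases before and 50 after the start was on hand for 8 of the 9 members, all but Oas2. It held an ISRE core for 5 of the 8: Oas1a, Oas1g, Oas3, Ifit1 and Ifit3. Of all 27025 genes with such a window, 3.99% held the core. Among the other family genes, it was held by 4 of 6 with a window, Oas1c, Ifit1bl1, Ifit1bl2 and Ifit3b, none of which passed the test below. In Oas1a and Oas1g the 2 cores overlap and lie just before the start, with their first bases at -20 and -14 in Oas1a and at -18 and -12 in Oas1g. In Ifit1 the cores begin at -104 and -85, and in Ifit3 at -156 and -122. Ifit3b, the close copy of Ifit3, carried the same 2 words at -188 and -154. Neither window of Ifit2 and neither that of Oasl1 nor that of Oasl2 held these letters. The gamma-activated site, searched as TTCNNNGAA, was found for 2 of the 8 members, Oas1a and Ifit2, and for 9.55% of all genes. A match of letters is not a measured binding site. Only these letters, in windows at annotated starts, were searched, so a miss does not show that a gene lacks the element.

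Transcripts of 8 of the 9 genes were higher in LPR than in MRL kidneys, and none was lower. At the level of probes, 9 of the 10 tested probes passed the threshold in the LPR direction (adjusted p under 0.05), against a background of 6.53% of all tested probes (2606 of 39924); the remaining probe, that of Ifit2, did not pass. In the other direction the background was 6.17%, with 0 of the 10 members' probes. The 9 probes that passed also had all 3 LPR mice above all 3 MRL mice, which was true of 11.0% of all tested probes. Counted by gene, with the brightest tested probe standing for a gene, the members' median log2 change was 1.17, a 2.26-fold difference, while that of all 25805 genes was -0.12. Oas3 met the rule on background through its LPR arrays alone and therefore had to differ. Without it, 8 of 9 probes and 7 of 8 genes were higher, and with Oas3 at its lower bound the members' median was 0.90, or 1.87-fold. The genes called higher in LPR had a median fold of 2.98, with quartiles of 1.86 and 7.86, so the members' median lay below the middle of that group. All levels below are log2 signals relative to the 75th percentile of the same array, and all changes are LPR minus MRL on that scale.

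Between 69.6% and 73.5% of spots were well above background, no spot was saturated, and arrays correlated at 0.990 to 0.993 within a strain and at 0.961 to 0.971 between strains. The 3 MRL arrays and the array of LPR 1 filled the first row of the slide, and LPR 2 and LPR 3 lay in the second row, so slide row and strain overlap in part. The probes of Fas did not simply fall in LPR. The brighter one read -0.37, -0.28 and -0.06 in MRL 1 to 3 and -0.49, -1.25 and -0.37 in LPR 1 to 3 (log2 change -0.47 ± 0.24, SE; adjusted p = 0.234). The other was well above background on 0 of 3 MRL and 3 of 3 LPR arrays, at least 1.47-fold higher in LPR (adjusted p = 0.0338), and the sources used here do not place either probe relative to the lpr insertion.

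Because the second slide row held LPR mice only, a fit with slide row as a block compares LPR 1 with the 3 MRL mice, and it gives the same log2 changes as the first row alone. The 9 probes that had passed kept the LPR direction in this contrast, with log2 changes from 0.50 to 1.89, and Ifit2 stood at 0.14. With the block, where the standard error also uses the spread between LPR 2 and LPR 3, those of Oas1a, Oas2 and Ifit1 passed, 3 of 10, against 3.65% of all probes. In the first row alone, 4 of 10 passed, those of Oas1a, Oas2, Oasl2 and Ifit1, against 2.80%, with the single LPR mouse assumed to vary like the MRL mice. The standard error was larger with the block (0.20 against 0.13 for Oas1a), and slide row and the loss of LPR replicates cannot be told apart here.

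**Figure D1:**
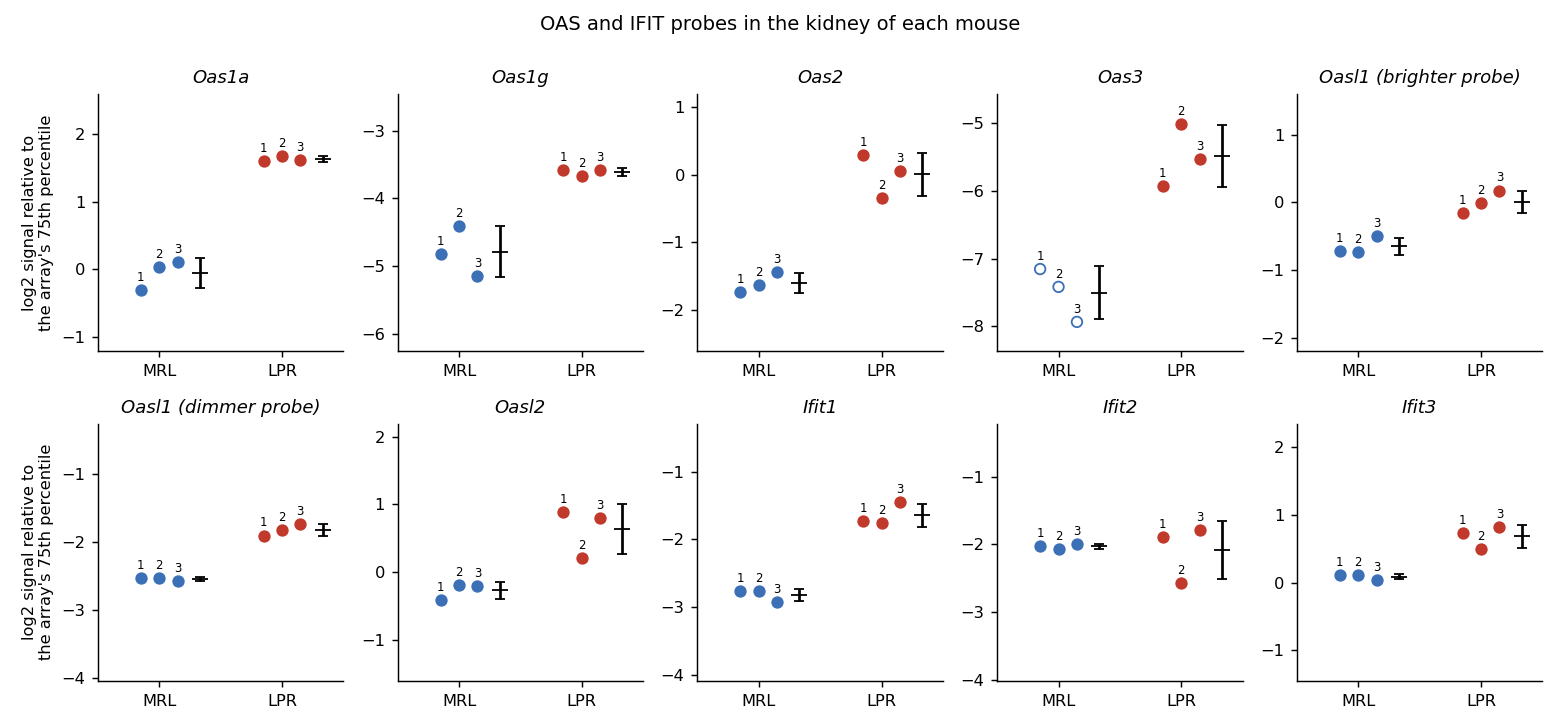
Log2 signal of the 10 tested OAS and IFIT probes, relative to the 75th percentile of each array, in the kidney of every mouse. Numbers are mice, open circles are arrays on which the probe was not well above background, and bars show mean and SD of 3 mice; every panel spans the same range of log2 units. The LPR mice lie above the MRL mice in every panel but that of Ifit2, where LPR 2 is lowest.

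Of the members measured above background in both strains, Oas1a and Oas2 had the largest changes. Oas1a, an active synthetase (probe at chr5:121346735-121346794, minus strand, in the mm9 coordinates of the array annotation), read -0.30, 0.03 and 0.12 in MRL 1, 2 and 3. It read 1.60, 1.67 and 1.62 in LPR 1, 2 and 3. The LPR mice were nearly alike, with an SD of 0.04, and the lowest of them was 1.48 above the highest MRL mouse. The log2 change of Oas1a was 1.68 ± 0.13 (SE, n = 3 mice a strain), a 3.21-fold difference with a 95% confidence interval of 2.57 to 3.99 (limma, adjusted p = 0.000354).

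Oas1g, a neighbour and close relative of Oas1a (chr5:121332000-121332059), gave a dim signal of -4.82, -4.40 and -5.15 in MRL and -3.58, -3.67 and -3.58 in LPR. All LPR mice were above all MRL mice, and here too the LPR mice were closer together than the MRL mice. The log2 change was 1.18 ± 0.19 (SE), or 2.27-fold (adjusted p = 0.00938). Because the probe was dim, the size depended on the background correction, and with normexp in place of the processed signal it was 0.34.

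Oas2, a longer member whose protein joins repeated OAS units, was read by a pair of probes. The one at chr5:121180343-121180402 gave -1.73, -1.63 and -1.43 in MRL and 0.29, -0.34 and 0.06 in LPR. The groups did not overlap, and LPR 2 gave the least signal among LPR mice. The log2 change was 1.60 ± 0.18 (SE), a 3.03-fold difference (adjusted p = 0.00181). The second Oas2 probe was well above background on 0 of the 6 arrays and was not tested.

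Oas3, the largest OAS protein, was near the limit of detection. Its probe was well above background on 0 of 3 MRL arrays and on 3 of 3 LPR arrays, where it read -5.92, -5.01 and -5.53. Only a lower bound of the difference can therefore be given, at least 1.38-fold higher in LPR, from the mean of the LPR mice against the dimmest signals measured above background on the MRL arrays. The adjusted p of the fit was 0.00502, for a probe that passed the rule on background in LPR only, and with normexp background correction the fitted log2 change was 0.12 (adjusted p = 0.462).

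The fitted changes of the OAS-like genes were smaller. Oasl1, which lacks synthetase activity and is known in mice as a brake on the translation of Irf7, had 2 tested probes, which gave similar changes. The brighter one read -0.72, -0.73 and -0.50 in MRL and -0.16, -0.01 and 0.17 in LPR. The dimmer one read -2.53, -2.54 and -2.57 in MRL and -1.90, -1.83 and -1.73 in LPR. On both probes every LPR mouse was above every MRL mouse. Their log2 changes were 0.65 ± 0.13 (SE, adjusted p = 0.0211) and 0.73 ± 0.10 (SE, adjusted p = 0.00452), which is 1.57-fold and 1.65-fold. The call of the brighter probe was lost without MRL 1 (adjusted p = 0.0738), MRL 2 (adjusted p = 0.0803) or LPR 3 (adjusted p = 0.0696), and that of the dimmer one held without any single mouse.

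Oasl2, the other OAS-like gene, read -0.42, -0.20 and -0.20 in MRL and 0.88, 0.20 and 0.80 in LPR. LPR 2 lay well below the other two LPR mice yet above all MRL mice. The log2 change was 0.90 ± 0.19 (SE), a 1.87-fold difference (adjusted p = 0.0285). The call held without LPR 2 (log2 change 1.11, adjusted p = 0.00501) and was lost when any other single mouse was left out, with adjusted p up to 0.0913.

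Of the IFIT genes, Ifit1 and Ifit3 passed the test and Ifit2 did not. Ifit1, which recognises the 5′ end of foreign RNA (chr19:34723827-34723886), read -2.77, -2.77 and -2.93 in MRL and -1.73, -1.76 and -1.46 in LPR. The strains were separated by more than the range within either. The log2 change was 1.17 ± 0.12 (SE), a 2.26-fold difference with a 95% confidence interval of 1.84 to 2.77 (adjusted p = 0.00136).

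Ifit3 read 0.12, 0.12 and 0.05 in MRL and 0.74, 0.50 and 0.82 in LPR, with no overlap. Its change was smaller, 0.59 ± 0.12 on the log2 scale (SE), or 1.51-fold (adjusted p = 0.0218). This call held without LPR 2 (adjusted p = 0.0128) and missed the threshold when any other mouse was left out, with adjusted p up to 0.0784.

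Ifit2, whose protein binds AU-rich RNA, did not pass the test. It read -2.02, -2.07 and -2.00 in MRL and -1.89, -2.57 and -1.79 in LPR. LPR 1 and LPR 3 were slightly above all MRL mice, while LPR 2 lay below every other mouse. The log2 change was -0.06 ± 0.21 (SE, adjusted p = 0.878). The 95% confidence interval of Ifit2, 0.68-fold to 1.36-fold, lay below that of Ifit1 but overlapped that of Ifit3, 1.24-fold to 1.83-fold. Without LPR 2 the log2 change was 0.19 (adjusted p = 0.247).

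**Figure D2:**
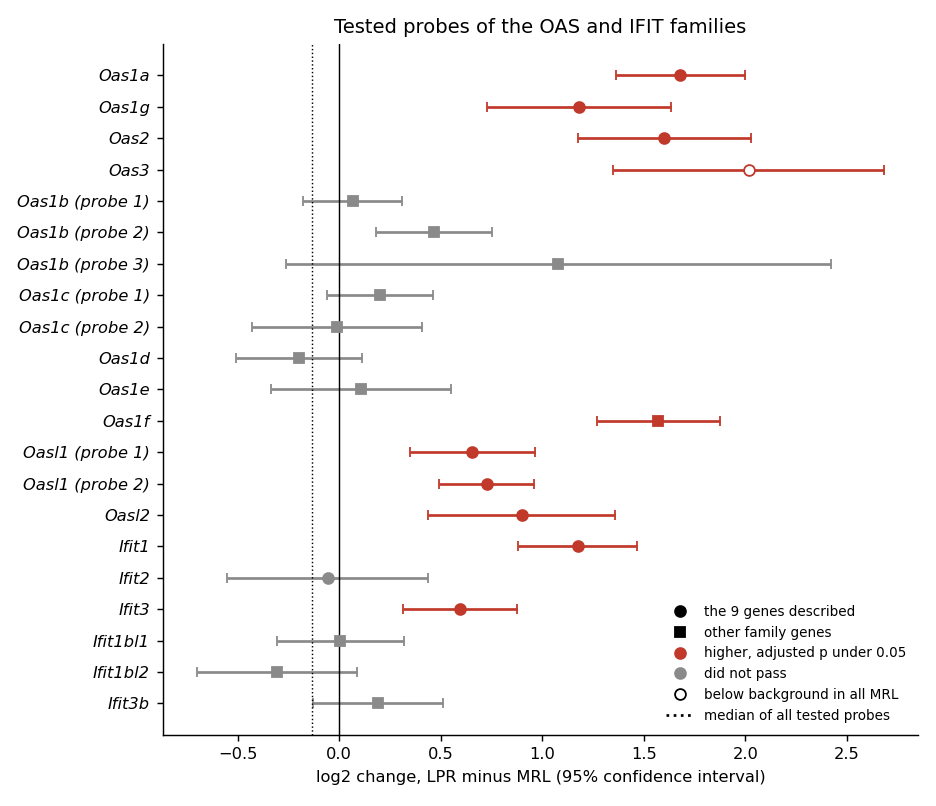
Log2 change between LPR and MRL kidneys (x axis) with 95% confidence intervals from limma for the 21 tested probes of the OAS and IFIT families. Circles are the 9 genes described and squares other family genes; red passed an adjusted p of 0.05, grey did not, and the open circle of Oas3 marks a probe below background in all MRL mice. Oas1f is the only square in red.

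Whether paralogs changed to different extents was examined within arrays, by the difference of their log2 values in each mouse, for 6 pairs. Each gene was read by its brightest tested probe. The difference of Ifit1 minus Ifit2 was 1.23 larger in LPR than in MRL, and that of Ifit3 minus Ifit2 was 0.65 larger. That of Ifit3 minus Ifit3b was 0.40 larger and that of Oas1a minus Oas1b 1.61 larger. The last value depends on the probe, since Oas1b changed by 0.07 on its brightest probe and by 0.47 on another. In each of these 4 pairs all LPR mice were above all MRL mice. That gives p = 0.1 in the 2-sided exact permutation test, the smallest that 3 against 3 mice allow. After adjustment over the 6 pairs it was 0.15. This test could therefore not reach the threshold whatever the values, and it does not decide whether the paralogs differed. Each of the 4 pairs also set a gene that had passed against one that had not. Their separation is therefore not independent of those calls. For Oas1a minus Oas1g the difference of 0.50 was not separated between the strains (exact permutation p = 0.3). The same was true of Oasl2 minus Oasl1, at 0.25 (exact permutation p = 0.5).

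Other genes of both families, fixed as a list of 9, served as the nearest comparison. Of the 8 that were tested, 1 was higher in LPR and 0 were lower, against 7.12% and 5.47% of all genes tested in those directions. The 1 was Oas1f, which read -1.47, -1.28 and -1.06 in MRL and 0.28, 0.33 and 0.31 in LPR. Its log2 change of 1.57 ± 0.13 (SE, adjusted p = 0.000393) was close to that of Oas1a. The 60-base probes of Oas1f and Oas1a match at 41 bases and share a run of 14, more than any other pair of genes compared, and the part of cross-hybridisation in the result was not tested. The promoter window of Oas1f held no ISRE core. Oas1b, the gene of flavivirus resistance, had a log2 change of 0.07 ± 0.10 (SE, adjusted p = 0.69) on its brightest probe. Its other probes gave 0.47 (adjusted p = 0.0501) and 1.08 ± 0.57 (SE, adjusted p = 0.245). The last of these was well above background on only 1 of 3 MRL arrays and read -7.98 in MRL 2. None of the Oas1b probes passed, their confidence intervals overlapped, and a difference between them was not tested. Oas1c, Oas1d, Oas1e, Ifit1bl1, Ifit1bl2 and Ifit3b lay between -0.31 and 0.20 and did not pass, and Oas1h was above background on no array.

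The members with an ISRE core in the window, Oas1a, Oas1g, Oas3, Ifit1 and Ifit3, were all called higher, Oas3 with the limit given above. Ifit2, with no core in its windows, did not pass. The other family genes with a core did not pass either. Ifit3b, with the same 2 cores as Ifit3, had a log2 change of 0.19 ± 0.13 (SE, adjusted p = 0.371), and Oas1c, with 2 cores, had a change of 0.20 ± 0.11 (SE, adjusted p = 0.267). Ifit1bl1, with 1 core at each of its 2 starts, stood at 0.01 (adjusted p = 0.98). One of the 2 start windows of Ifit1bl2 overlaps that of Ifit1 and holds the same 2 cores, the other holds none, and its change was -0.31 ± 0.17 (SE, adjusted p = 0.262). Oasl1 and Oasl2 were higher in LPR with no core in the window, which does not show that they lack the element. The part of the ISRE in these changes was not tested.

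The rest of the interferon pathway was read from lists of 84 genes fixed by role, with earlier results of these data known. Of the 74 tested, 32 were higher in LPR and 0 were lower, with a median log2 change of 0.33. Over all genes tested, 7.12% were higher and 5.47% lower, with a median of -0.12. Of the ligands, 1 of 12 tested was higher: Ifng, interferon gamma, was well above background on 0 of 3 MRL and 3 of 3 LPR arrays, a difference of at least 16.4-fold (adjusted p = 0.000277). Like Oas3, Ifng met the rule on background through its LPR arrays alone and therefore had to differ, and it counts among the 32. None of the 11 other tested ligand genes, of type I and type III interferons, passed, and the median of the list was -0.05. These 11 were dim, with mean levels in MRL from -5.18 (Ifna2) to -2.67 (Ifnk), so small changes of them cannot be resolved. Ifnb1, interferon beta, was among the 7 ligand genes not well above background on enough arrays to be tested.

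Among receptors and signalling genes, 4 of 12 were higher. Among them were Irf9, with a log2 change of 1.21 (adjusted p = 0.000621), the interferon gamma receptor chain Ifngr2 at 0.62 (adjusted p = 0.00883) and Stat2 at 0.59 (adjusted p = 0.0223). The 3 kinases and both chains of the type I receptor did not pass by their brightest probes, although 1 of the 2 probes of Ifnar2 did.

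Of the transcription factors that switch on interferon genes, 4 of 5 were higher. They were Irf1 (2.44, adjusted p = 7.15e-05), Irf8 (1.57, adjusted p = 0.000923), Irf7 (1.40, adjusted p = 0.000951) and Irf5, while Irf3 stood at -0.11 (adjusted p = 0.561). All 4 genes listed as feedback inhibitors were higher, with adjusted p from 8.73e-05 to 0.00203. The changes were 2.76 for Socs1, 2.19 for Socs3, 1.45 for Isg15 and 0.97 for Usp18, the protease that removes Isg15.

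The genes that act downstream of OAS or turn over 2-5A had no call, with 0 of 3 tested higher and 0 lower. Among them Pde12, which degrades 2-5A, stood at -0.40 (adjusted p = 0.173) and Abce1, which also acts in ribosome recycling, at -0.22 (adjusted p = 0.221). Of the RNA and DNA sensors, 6 of 12 were higher, led by Zbp1 (2.86, adjusted p = 9.73e-05), Tmem173, which encodes STING (1.80, adjusted p = 0.000157), and Ifih1, which encodes MDA5 (1.14, adjusted p = 0.0156). The RNA sensors Ddx58 and Eif2ak2 did not pass.

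Of 18 other interferon-stimulated antiviral genes, 12 were higher and 0 lower, with a median log2 change of 0.90. Mx1 led with 3.21 (adjusted p = 0.00137), although it was above background on only 1 of 3 MRL arrays, before Bst2 with 1.91 and Isg20 with 1.81. Rsad2 (-0.02), Ifi44 (0.32) and Cmpk2 (0.34), which are also classical interferon-stimulated genes, did not pass. Of the guanylate-binding proteins, a family known for its response to interferon gamma, 10 of 11 were higher. Gbp2b was below background in all MRL mice, at least 2.49-fold higher in LPR, and so also had to differ. Of the 10 genes of this family measured in both strains, 9 were higher. With genes below background in a strain at their bound, the median log2 change was 2.55 for this family and 0.90 for the 9 OAS and IFIT genes. The largest fitted changes were those of Gbp6 at 4.54, Gbp11 at 3.97 and Gbp9 at 3.95. The exception, Gbp5, stood at -0.05 on its brighter probe, while its other probe was higher. Both medians describe the lists and were not tested against each other.

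**Figure D3:**
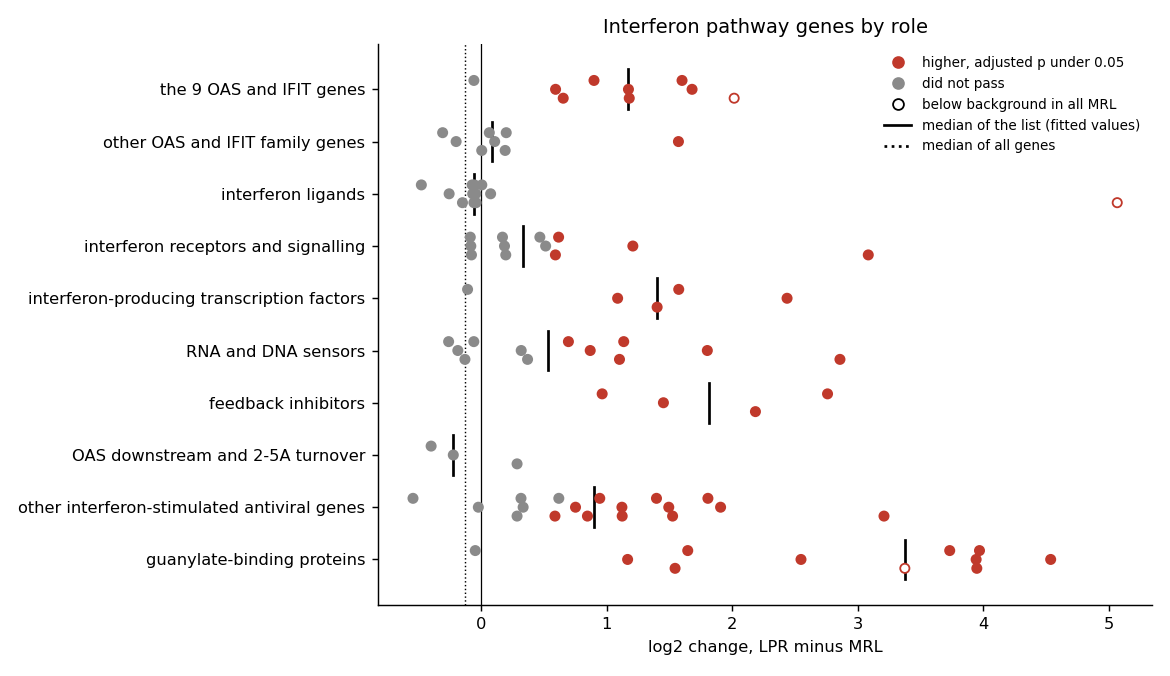
Log2 change between LPR and MRL kidneys (x axis) of every tested interferon pathway gene, by its brightest tested probe, in rows by role. Red passed an adjusted p of 0.05, grey did not; open symbols were below background in all MRL mice, black bars are list medians of the fitted values, and the dotted line is the median of all genes. The single red point among the ligands is Ifng, and no point is lower with an adjusted p under 0.05.

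Markers of immune cells moved with the strains. The mean level of 5 T cell markers was -2.08 to -1.77 in MRL mice and 0.89 to 1.15 in LPR mice, with 4 of 5 higher, and Cd247, the other one, higher on 2 probes but not on its brightest. That of 5 macrophage and dendritic cell markers was -0.48 to 0.25 in MRL and 2.38 to 2.61 in LPR, with 5 of 5 higher. B cell markers were higher for 3 of 5 and lower for 1 of 5. The lower one was Ms4a1, which was lower on its brighter probe (adjusted p = 0.0497) and higher on its other probe. Neutrophil markers were higher for 2 of 4. Of 4 genes listed for plasmacytoid dendritic cells 1 was higher, but 2 of them, Klk1, which kidney tubules also make, and Siglech, read 6.89 and 6.64 in MRL, so the list says little about these cells in kidney. All these markers were well above background on all 6 arrays. The leukocyte gene Ptprc was higher on 5 of its 6 tested probes and did not pass on the brightest one, with 0.39 (adjusted p = 0.137). The 9 markers of kidney epithelium were above background on all arrays, as the labelled tissue requires. Their mean level was 4.66 to 4.79 in MRL mice and 4.54 to 4.65 in LPR mice, with 1 of 9 lower. In whole tissue, more cells of a type and more RNA per cell cannot be told apart, and the part of these cells in the OAS and IFIT values was not tested. Among the LPR mice the mean levels of T cell, B cell and neutrophil markers were lowest in LPR 1, and that of macrophage and dendritic cell markers in LPR 3. Neutrophil markers were highest in LPR 2. Of the 10 member probes, LPR 2 was the lowest of the LPR mice for 6 and LPR 3 the highest for 5. A relation between these orders was not tested.

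The OAS and IFIT genes lie in 3 clusters, and their chromosomal neighbours were read in the same way, by probes within 500 kb of the outermost member probe in mm9 coordinates. Over all tested probes, 6.53% were higher and 6.17% were lower. Around Oas1a, Oas1g, Oas2 and Oas3, on chromosome 5, 3 of 44 tested probes were higher, near that share, and 1 was lower. The higher ones were Oas1f, the Notch regulator Dtx1 (0.82, adjusted p = 0.0469) and Trafd1 (0.76, adjusted p = 0.00331), and the lower one was a probe of the ion channel gene Tpcn1 (-0.40, adjusted p = 0.0475). Around Oasl1 and Oasl2, 0 of 52 were higher and 1 was lower.

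Around the Ifit genes on chromosome 19, where Fas also lies, 6 of 18 probes were higher and 2 were lower, against 6.53% and 6.17% of all tested probes. The 6 were a Fas probe, 3 probes of Acta2, the smooth muscle actin gene (0.61 to 0.78), 1 of Stambpl1 and that of Ch25h. The Fas probe passed the rule on background through its LPR arrays alone. Ch25h makes an antiviral oxysterol and is itself an interferon-stimulated gene. Ch25h had the largest change among neighbours measured in both strains, 1.80 ± 0.11 (SE, 3.47-fold, adjusted p = 0.000128). The lower ones were Pank1, at -0.79, and a probe for an unnamed transcript that was well above background in 3 of 3 MRL and 0 of 3 LPR mice. The nearest Ifit probe, that of Ifit2, lies 248 kb from Fas and the farthest, that of Ifit1, lies 322 kb from it. For genes on this stretch, the lpr mutation and any other sequence inherited with it cannot be told apart.

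**Figure D4:**
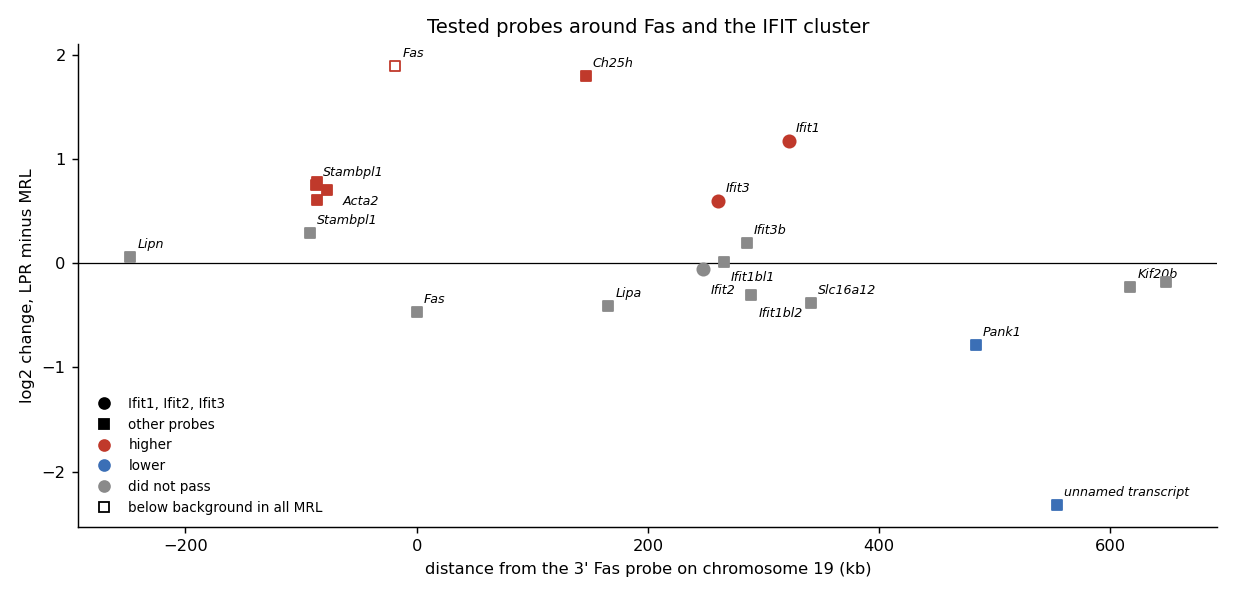
Log2 change between LPR and MRL (y axis) of tested probes on chromosome 19, by distance in kb from the Fas probe nearest to the Ifit genes (x axis). Circles are Ifit1, Ifit2 and Ifit3 and squares other probes; red was higher, blue lower and grey did not pass. Ifit1 and Ifit3 are red while Ifit2, Ifit1bl1, Ifit3b and Ifit1bl2 between and beside them are grey.

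The genes whose values over the 6 arrays were most like the mean of the 9 members were Phf11d (Pearson r = 0.999), the complement gene C3 (r = 0.999), 2010016I18Rik (r = 0.999), Dpysl3 (r = 0.999) and the protease inhibitor gene Timp1 (r = 0.998). The 6 points fall into the 2 strains, so any gene with a clean strain difference scores high, and 1096 of 25790 other genes had r above 0.95. Phf11d changed by 1.22, C3 by 2.48 and Timp1 by 2.56 on the log2 scale.

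**Figure D5:**
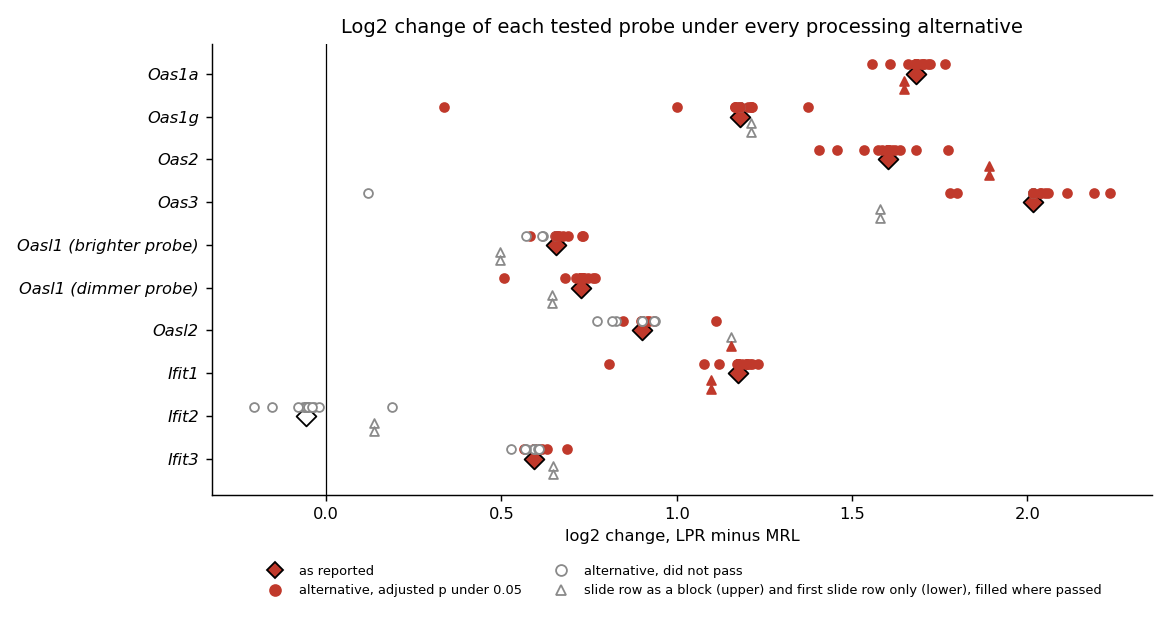
Log2 change of each of the 10 tested member probes (x axis) as reported (diamonds) and under up to 18 processing alternatives (circles; triangles for slide row). Filled symbols passed an adjusted p of 0.05. Oas1a, Oas2 and Ifit1 are filled throughout, and Ifit2 is open throughout and lies on both sides of 0.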

How the data were processed

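Whole kidney RNA of 3 MRL and 3 LPR mice was labelled with Cy3 and hybridised to 6 single-colour arrays of 1 slide. Per the labels, RNA was purified with an RNeasy kit, while the study's methods name Trizol. The submitters' processing notes name Agilent Feature Extraction 12.0.3.1, and the deposited scanner files give, for each spot, an intensity that this program had already corrected for background (processed signal). The authors' own normalised table, used as an alternative, holds a ratio: the same signal divided by 1 value per array, close to that array's 75th percentile over all spots. The study's methods describe that normalisation as a 75th percentile shift.

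Here the log2 of each processed intensity was taken, the array's 75th percentile over non-control spots was subtracted, and spots of 1 probe were averaged. Probes well above background on at least 3 of 6 arrays were tested with limma (version 3.58.1, R version 4.3.3). The 2-sided p-values of all 39924 tested probes were adjusted together by the method of Benjamini and Hochberg, and an adjusted p under 0.05 was called. The fit was tested on simulated data. A probe below background on every array of a strain was given only a bound. Figures and permutation tests used python 3.11.15, scipy 1.17.1 and matplotlib 3.10.9. The members and gene lists were chosen with earlier results of these data known. Named genes were all members with every probe, Fas, up to 3 genes of each pathway list with the largest change plus any that went against their list, the neighbours with the largest change, and the 5 genes most like the members; others named with values, and the further neighbours, were chosen after their values were seen. The values of 3 genes are not reported here. Promoter sequences came from RefSeq (GRCm38.p6), and probe positions are those of the array annotation (mm9). The number of arrays limits the precision. Alternatives covered background correction, scaling, the filter on dim probes, the variance model, the methods' t-test, slide row, a replicate block and leaving out each mouse.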

Additional observations from a re-analysis of the deposited data

How the results depend on the processing

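Of the 9 member probes higher in LPR, 4 stayed past the threshold with the methods' t-test after adjustment and 9 without adjustment, 3 with slide row as a block and 4 within the first slide row, an alternative chosen after seeing the data. Both of these are the contrast of LPR 1 with the 3 MRL mice, so they are not separate checks. Single mice left out gave 6 to 9. Ifit2, which never passed, changed sign to 0.14 with the slide row as a block and within the first row, and ranged from -0.20 to 0.19 with single mice left out (0.19 without LPR 2). Oas3 could not be tested where a probe had to be above background on all arrays, and its log2 change missed the threshold under 4 alternatives. Oasl2 and Ifit3 missed it under 9 alternatives each, the brighter Oasl1 probe under 6, Oas1g under 3 and the dimmer Oasl1 probe under 2. The median of all probes lay between -0.17 and -0.10 in all fits.

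Over all probes, 2606 were higher and 2462 lower. The methods' t-test gave 1736 and 1386 after adjustment (3578 and 7176 without), the slide row block 1458 and 463, and the first row 1116 and 315. With normexp background correction 4542 were lower against 2532 higher, and with no filter on dim probes 1093 were lower. Leaving out 1 mouse gave 760 to 2269 lower. Of the pathway genes, 32 were higher, and 17 within the first row. With normexp correction or an intensity trend 1 was lower (Samd9l), and leaving out 1 mouse gave 0 to 1 (Pde12 without LPR 2).

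Mice of the 2 strains share replicate numbers, but the labels do not say that a number marks anything shared, so the numbers were not taken as pairs. The deviations of same-numbered mice correlated at 0.12, 0.02 and 0.01, and those of differently numbered mice at -0.07 to 0.05. With a replicate block 7 member probes were higher, Oasl2 (adjusted p = 0.0658) and Ifit3 (adjusted p = 0.0602) being lost, and 1117 of all probes were lower. With 3 arrays a strain, small changes of dim probes cannot be resolved.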
